A study of Homo sapiens with 10 samples.

Results

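The genes of the RNA polymerase II machinery were followed through a genome-wide CRISPR knockout screen of 22Rv1 cells, a human prostate cancer line that carries the androgen receptor. The genes were taken by symbol from the count table: the polymerase subunits POLR2A to POLR2L, the general transcription factor genes that begin with GTF2A, GTF2B, GTF2E, GTF2F or GTF2H, the numbered TAF genes, TBP, ERCC2, ERCC3, SUPT5H, SUPT6H, SUPT16H and SSRP1. This gave 48 of the 18686 genes in the table, and 140 of its 55849 sgRNAs. The screen compared parental 22Rv1 cells with 22Rv1 cells that overexpress NMYC, the protein of the MYCN gene, at T0 (1 library in each arm) and at T6 and T12 (2 libraries in each arm), so 6 groups held 10 libraries. In both arms the cells were infected with the lentiviral sgRNA library at a multiplicity of 0.3 and selected with puromycin, and duplicate cultures were then passaged every 72 hours for 12 generations. The sources used here do not give how NMYC was introduced, whether the derivative is a clone, or the unit behind T6 and T12. The libraries are amplicons of the integrated sgRNA cassette, so no RNA or protein level, and no editing of any target, was measured.

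RNA polymerase II transcribes the protein-coding genes. TFIID, made of TBP and the TAFs, recognises the promoter. TFIIA and TFIIB join it, TFIIF brings in the polymerase, and TFIIE and TFIIH complete the complex, in which the TFIIH subunit ERCC3 helps to open the DNA. SUPT5H, SUPT6H and the FACT complex (SUPT16H and SSRP1) then act on the elongating polymerase and on nucleosomes. Most of these genes are classed as essential in dividing human cells, and in a working knockout screen sgRNAs against essential genes are lost from the culture as the cells divide. The question for these genes was whether their sgRNAs were lower at T6 and T12 than at T0, and whether this differed between the arms.

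In the reported edgeR fit no sgRNA of the machinery passed the test at T12 against T0 in either arm, or in any of the other 6 comparisons. No gene passed by rank aggregation or by edgeR on summed counts. Some alternative edgeR fits called a TAF4 sgRNA lower in NMYC cells at T12 against T0, as given with TAF4. DESeq2, run as an alternative, called some of the sgRNAs in 7 of the 8 comparisons, as given with each. Their summed sgRNA abundance at T12 lay on both sides of T0, with a median close to that of all genes. TAF8, TAF3 and POLR2L had the lowest values in parental cells, and TAF4 the lowest in NMYC cells, while SUPT5H in parental cells and GTF2A1 in NMYC cells had the highest. For TAF8, SUPT5H and GTF2A1 the values had opposite signs in the arms, and their T0 levels also differed between the arms.

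Of the 140 sgRNAs, 131 averaged 20 counts or more across the 10 libraries and were tested, while 9 (6.43%, against 5.03% of all sgRNAs) fell short of this. A gene was tested where at least 2 of its sgRNAs remained, which left 46 of the 48 genes, 38 with 3 sgRNAs and 8 with 2. POLR2E, a subunit shared by all nuclear RNA polymerases, kept 1 of its 3 sgRNAs and was not tested. Of the POLR2E sgRNAs that fell short, only HGLibB_37527 is listed here. HGLibB_37527 had 0 counts (T0), then 0 and 2 (T6), then 0 and 0 (T12) in parental cells and 1 count (T0), then 0 and 0 (T6), then 0 and 0 (T12) in NMYC cells, so it was near 0 from the start. The kept sgRNA of POLR2E, HGLibB_37526, had 257 counts (T0), then 381 and 112 (T6), then 1088 and 27 (T12) in parental cells and 418 counts (T0), then 79 and 129 (T6), then 33 and 277 (T12) in NMYC cells, and the replicates of a time point lay on both sides of T0 in parental cells at T12. POLR2J had 1 sgRNA in the table, HGLibB_37541, with 4 counts (T0), then 22 and 4 (T6), then 0 and 3 (T12) in parental cells and 11 counts (T0), then 29 and 8 (T6), then 1 and 35 (T12) in NMYC cells, and it too was not tested. GTF2H2, GTF2H2C and GTF2H2D, genes for the same TFIIH subunit, are near-identical copies, and POLR2J has near-identical copies as well, so the gene that each of these sgRNAs cuts is uncertain. TAF9 shares its locus with AK6.

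Library totals ran from 8783512 to 18398571 counts. The sgRNAs of the machinery made up 0.195% to 0.239% of these counts, against 0.251% of the sgRNAs in the table. The T0 libraries of the arms agreed weakly for these genes, and so did the replicate libraries at T12. Of the 131 tested sgRNAs, 47 (35.9%, against 42.6% of all tested sgRNAs) differed more than 4-fold in CPM, the count scaled to library size, between the parental and the NMYC T0 library. At T0, 32 of the 131 (24.4%, against 21.7% of all) had fewer than 10 counts in parental cells, 22 (16.8%, against 11.4%) in NMYC cells, and 11 in both. Over the 46 genes the Spearman correlation of summed T0 levels between the arms was -0.095, and over all 18197 tested genes it was 0.25. Between replicates over the 46 genes it was 0.24 (parental) and 0.33 (NMYC) at T12, and 0.42 and 0.47 at T6. By single sgRNA, over the 131, it was 0.33 between the T0 libraries. Replicates gave 0.31 (parental) and 0.36 (NMYC) at T12, and 0.39 and 0.55 at T6, over the same sgRNAs. These are correlations across genes or sgRNAs within single libraries, where genes and sgRNAs are not replicates. Since every T12 and T6 library of an arm is set against the same T0 library, an unusual T0 level enters all its values. The T0 and the T12 levels, which share no term, correlated at -0.038 in parental and 0.26 in NMYC cells over the 46 genes, and at 0.31 and 0.33 over all genes.

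**Figure D1:**
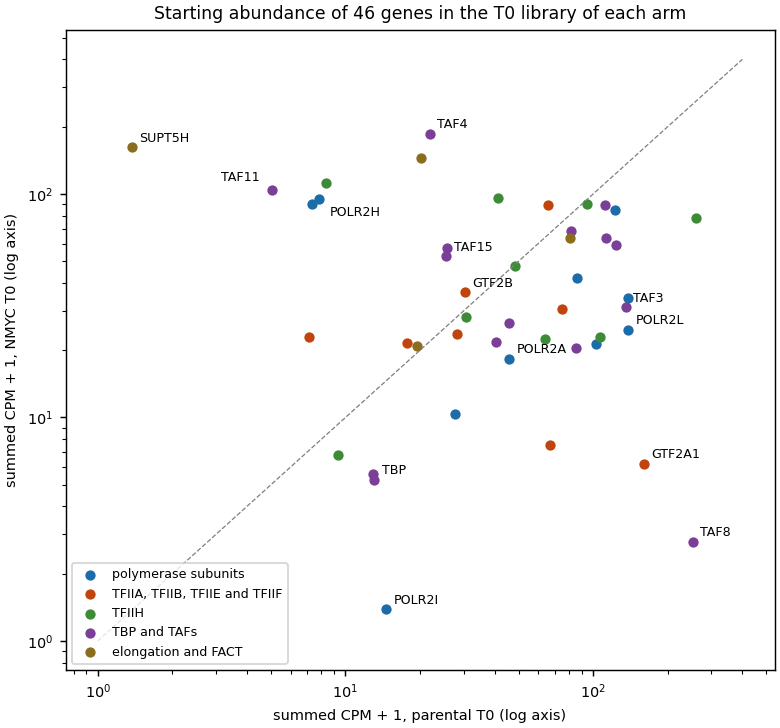
Summed CPM plus 1 of each of the 46 tested genes in the parental T0 library (x axis, log scale) and in the NMYC T0 library (y axis, log scale), 1 point a gene, coloured by role, with the dashed line where both are equal. TAF8 and GTF2A1 lie far below the line and SUPT5H, TAF11 and TAF4 far above it.

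Gene values below are log2 ratios of the summed CPM of a gene's tested sgRNAs, with 1 CPM added, minus the same ratio of the median gene. The test was edgeR's quasi-likelihood test on each sgRNA, with Benjamini-Hochberg adjustment over all 53040 tested sgRNAs at 0.05. In parental cells at T12 against T0 it called 0 of the 131 sgRNAs, against 0.0226% of all sgRNAs lower and 0% higher. Before adjustment, at p under 0.05, 11 were lower and 11 higher (8.397% each, against 5.92% and 5.31% of all). In NMYC cells it also called 0, against 0.0132% of all lower and 0% higher, with 6 lower and 6 higher at the unadjusted level (4.58% each, against 5.31% and 1.48%). DESeq2 called 7 lower and 7 higher in parental cells (3.75% and 7.36% of all) and 2 lower and 3 higher in NMYC cells (1.64% and 1.24% of all). The parental calls by DESeq2 were of 1 sgRNA each, lower for GTF2A1, GTF2A1L, POLR2L, TAF1, TAF3, TAF4 and TAF8 and higher for GTF2H2C, POLR2D, SUPT5H, TAF9, TAF11, TAF15 and TBP. Its NMYC calls were lower for TAF2 and TAF4 and higher for GTF2A1, POLR2A and TAF7, so TAF4 was the gene with a lower call in both arms. Gene scores from robust rank aggregation, which asks whether a gene's sgRNAs rank together towards 1 end of the list, gave adjusted p-values of at least 0.977 in parental and 0.885 in NMYC cells, so 0 of 46 genes were called, as were 0% of all genes. Without adjustment, 5 genes were at the low end and 5 at the high end in parental cells (10.9% each, against 5.11% and 4.85%). In NMYC cells 1 gene, TAF4, was at the low end (2.17%, against 5.02%), and 7 were at the high end (15.2%, against 5.07%): POLR2A, GTF2A1, GTF2H3, ERCC3, TAF7, TAF9 and TAF15, of which TAF9 and TAF15 fall outside the naming rule and are listed because of these values. edgeR on the summed counts called 0 of the 46 genes in either arm, against 0% of all genes lower in parental and 0.0055% lower in NMYC cells. Its calls before adjustment were 7 lower and 4 higher in parental cells (6.68% and 6.35% of all) and 1 lower and 2 higher in NMYC cells (5.79% and 2.19% of all).

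The median value of the 46 genes at T12 against T0 was 0.22 in parental cells (-0.57 and 0.14 in the replicates), with 20 genes below the median gene. In NMYC cells it was 0.14 (0.32 and -0.11 in the replicates), with 21 below. All genes have a median of 0 by construction, and 358 tested olfactory receptor genes, taken by symbol for comparison, had medians of 0.079 and 0.013. The order of the machinery and the olfactory receptor genes rested on single libraries. Without parental T12 replicate 2 the medians were -0.57 and 0.18 in parental cells, without parental T12 replicate 1 they were 0.14 and 0.24, and without NMYC T12 replicate 1 they were -0.10 and 0.091 in NMYC cells. With the sgRNAs that had 30 counts or more in each T0 library, which left 22 of the genes, they were 0.096 and 0.26 in parental cells. With the values centred on 934 non-targeting sgRNAs in place of the median gene, all genes had medians of -0.65 and -0.44, and the 46 genes -0.44 and -0.31. That centre is the median ratio of single sgRNAs, 0.56 and 0.47, while gene values are ratios of sums, so the units differ. Before centring, the median gene lay at -0.096 and 0.028 by sums, and at 0.39 and 0.17 by the median of its sgRNA values. At T12 the values of single genes spread as widely between replicates as between T12 and T0: the median difference between T12 replicates was 1.51 on the log2 scale in parental cells against a median absolute value of 1.33, and 1.20 against 0.86 in NMYC cells. At T6 the replicate difference was the smaller of the pair, 0.96 against 1.59 in parental and 0.79 against 0.83 in NMYC cells. Signs were opposite in the arms for 19 of the 46 genes (41.3%, against 49.7% of all genes).

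**Figure D2:**
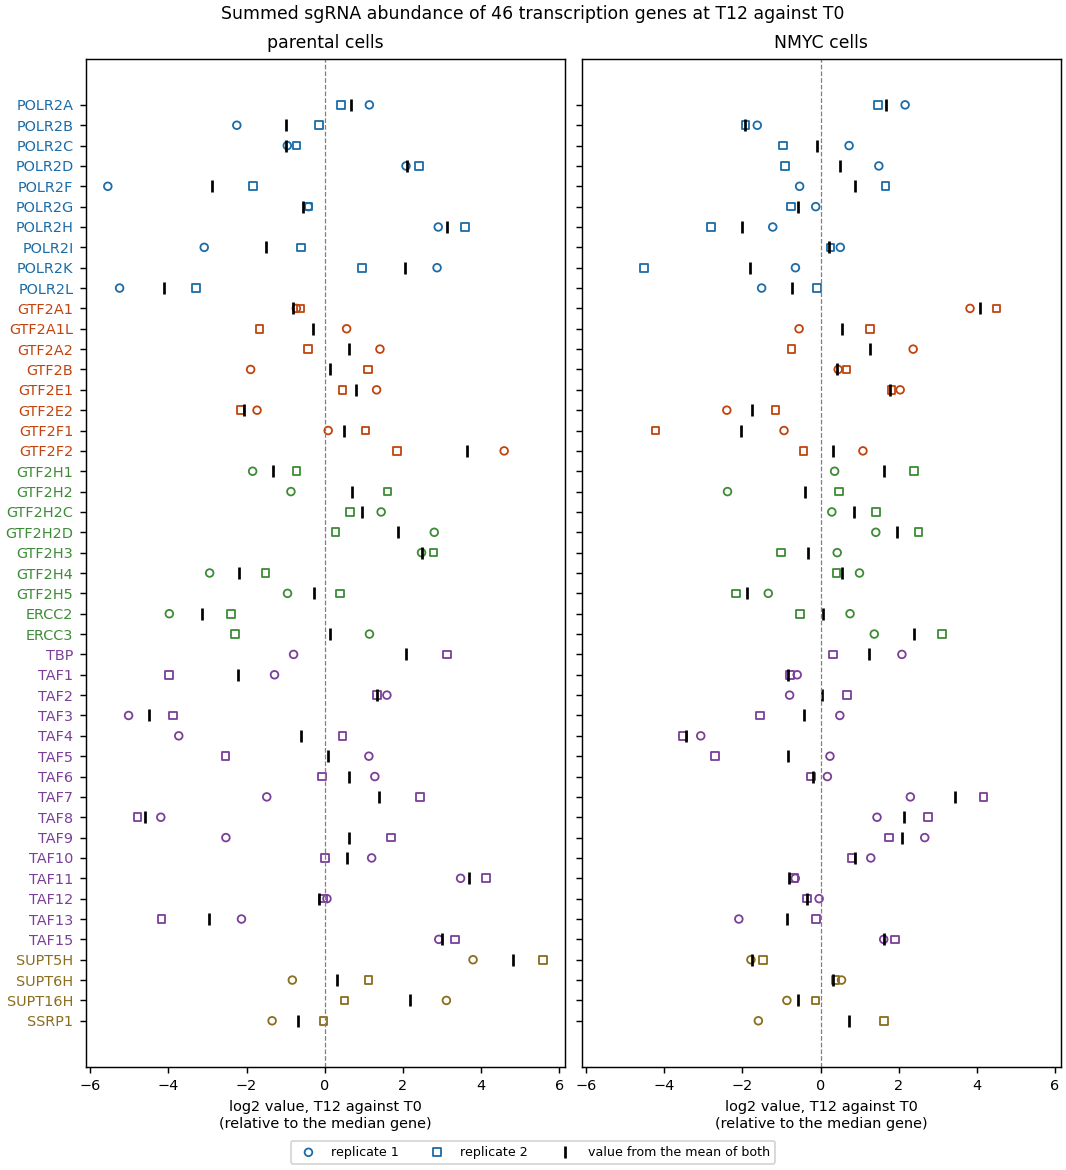
Log2 value at T12 against T0 (x axis) of each of the 46 tested genes (rows, coloured by role) in parental cells (left) and NMYC cells (right); circles are replicate 1, squares replicate 2, and the black bar is the value from the mean CPM of both. The values lie on both sides of 0 in every role group, and TAF8, TAF3 and POLR2L are at the far left in parental cells.

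Among the polymerase subunits, the median value at T12 against T0 was -0.77 in parental and -0.34 in NMYC cells, with 6 of the 10 tested genes below 0 in each arm. POLR2A encodes the largest, catalytic subunit, whose C-terminal domain is phosphorylated as transcription proceeds. Its summed level in parental cells was 44.9 CPM (T0), then 49.2 and 22.4 (T6), then 84.5 and 50.9 (T12), and in NMYC cells 17.3 CPM (T0), then 44.3 and 33.5 (T6), then 67.9 and 49.4 (T12). All 4 T12 libraries were above their T0 library, at values of 1.14 and 0.42 in the parental and 2.16 and 1.46 in the NMYC replicates. In NMYC cells this rested on 1 sgRNA, HGLibB_37516, with 8 counts (T0), then 540 and 56 (T6), then 864 and 570 (T12), and in parental cells the same sgRNA had 70 counts (T0), then 288 and 9 (T6), then 756 and 735 (T12). Its unadjusted p in NMYC cells was 0.019, with an adjusted p of 0.615 in edgeR and 0.0114 in DESeq2.

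POLR2B, the other large subunit of the catalytic core, had values on the other side of 0. Its level was 85.1 CPM (T0), then 41.8 and 20.2 (T6), then 14.3 and 64.5 (T12) in parental cells and 41.2 CPM (T0), then 8.89 and 14.3 (T6), then 10.5 and 10.1 (T12) in NMYC cells. Each of its 3 sgRNAs had a negative fitted change at T12 in both arms, and all 4 T12 libraries were below T0, with values of -0.997 and -1.93. In parental cells the T12 replicates lay far apart, at -2.25 and -0.15, and edgeR on the summed counts gave adjusted p-values of 0.746 and 0.718. All 3 sgRNAs were lower in parental cells for 6 of 38 genes with 3 tested sgRNAs (15.8%, against 12.8% of all such genes) and in NMYC cells for 5 (13.2%, against 12.8%). All 3 were higher for 5 genes in each arm (13.2%, against 12.5% and 12.7%), GTF2E1 in both.

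POLR2L, a small subunit shared by all nuclear RNA polymerases, had one of the lowest parental values. Its level was 137 CPM (T0), then 23.3 and 56.2 (T6), then 2.07 and 10.9 (T12) in parental cells, or a mean of 6.50 ± 6.27 CPM (SD, n = 2) at T12, and 23.7 CPM (T0), then 33.00 and 27.8 (T6), then 6.28 and 22.1 (T12) in NMYC cells. Both parental T12 libraries were below both T6 libraries, and the value was -4.11 in parental and -0.73 in NMYC cells (edgeR on summed counts, adjusted p = 0.214 and 0.907). The parental T0 level came mostly from sgRNA HGLibB_37553, which had 1607 counts (T0), then 273 and 75 (T6), then 32 and 66 (T12) in parental cells and 35 counts (T0), then 294 and 152 (T6), then 63 and 249 (T12) in NMYC cells. POLR2F, also shared between polymerases, was at 137 CPM (T0), then 24.8 and 14.8 (T6), then 1.49 and 31.6 (T12) in parental and at 33.4 CPM (T0), then 7.66 and 33.8 (T6), then 18.9 and 107 (T12) in NMYC cells, where the T12 replicates lay on opposite sides of T0. All 3 of its sgRNAs were lower in parental cells, and its values were -2.88 and 0.87.

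POLR2H, another shared subunit, differed between the arms in sign. Parental cells gave 6.79 CPM (T0), then 37.3 and 14.8 (T6), then 48.3 and 77.95 (T12), and NMYC cells 93.5 CPM (T0), then 31.7 and 6.70 (T6), then 32.96 and 12.5 (T12). Its T12 values were 3.14 and -2.02, and the widest gap between the arms was at T0. POLR2D, a subunit of the stalk of the enzyme, was at 26.7 CPM (T0), then 30.7 and 122 (T6), then 98.01 and 123 (T12) in parental and 9.31 CPM (T0), then 73.8 and 35.1 (T6), then 23.3 and 4.47 (T12) in NMYC cells. Both NMYC T12 libraries were below both parental ones, and the direct difference at T12, -2.84, was the lowest of the 46 genes (edgeR on summed counts, adjusted p = 0.458). POLR2I was low throughout, with 13.6 CPM (T0), then 4.28 and 1.86 (T6), then 0.452 and 7.14 (T12) in parental and 0.388 CPM (T0), then 0.822 and 13.2 (T6), then 0.654 and 0.649 (T12) in NMYC cells, so its values of -1.51 and 0.22 rest on few reads. Of the subunits not yet described, POLR2C, POLR2G and POLR2K had values of -0.98, -0.56 and 2.07 in parental cells and of -0.098, -0.59 and -1.81 in NMYC cells.

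TFIIA, TFIIB, TFIIE and TFIIF had median values of 0.31 in parental and 0.48 in NMYC cells over 8 genes, with 3 and 2 below 0. GTF2B, the single-chain factor that links TBP to the polymerase, had 29.3 CPM (T0), then 13.8 and 12.6 (T6), then 5.88 and 54.1 (T12) in parental cells and 35.3 CPM (T0), then 40.2 and 17.1 (T6), then 40.7 and 56.5 (T12) in NMYC cells. Its values were 0.13 and 0.42, and the parental T12 replicates lay on either side of T0. GTF2A1, which encodes the precursor of the large TFIIA subunits, had the highest NMYC value. Its level was 5.20 CPM (T0), then 24.1 and 72.5 (T6), then 72.8 and 139.7 (T12) in NMYC cells and 159 CPM (T0), then 64.2 and 4.73 (T6), then 80.8 and 87.02 (T12) in parental cells. In NMYC cells all 4 later libraries were above T0, at a T12 value of 4.08 (edgeR on summed counts, adjusted p = 0.395), and in parental cells the value was -0.82.

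The tested sgRNAs of GTF2A1 disagreed in parental cells. HGLibB_20493 had 1695 counts (T0), then 209 and 6 (T6), then 15 and 16 (T12) there, with an unadjusted p of 7.36e-04 and an adjusted p of 0.176 in edgeR and 0.00888 in DESeq2 at T12 against T0. HGLibB_20492 had 437 counts (T0), then 914 and 27 (T6), then 1235 and 1385 (T12) in the same libraries and 22 counts (T0), then 168 and 750 (T6), then 1109 and 884 (T12) in NMYC cells. One sgRNA was thus low and the other high in both parental T12 libraries, although they are assigned to the same gene.

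TFIIE is made of GTF2E1 and GTF2E2, which lay on opposite sides of 0 in both arms. GTF2E1 had 27.2 CPM (T0), then 40.8 and 119.7 (T6), then 58.7 and 31.6 (T12) in parental and 22.7 CPM (T0), then 26.7 and 72.3 (T6), then 80.8 and 82.2 (T12) in NMYC cells, with values of 0.81 and 1.77. It falls outside the naming rule and is described because its 3 sgRNAs had the same sign in both arms. GTF2E2 had 65.99 CPM (T0), then 30.7 and 22.7 (T6), then 16.02 and 11.7 (T12) in parental and 6.52 CPM (T0), then 13.6 and 7.41 (T6), then 0.196 and 2.38 (T12) in NMYC cells, with values of -2.08 and -1.75 (edgeR on summed counts, adjusted p = 0.551 and 0.731). All 4 T12 libraries of GTF2E1 were above T0 and all 4 of GTF2E2 below it. Over the 46 genes, 6 had a value below 0 in all 4 T12 libraries (13.04%, against 12.6% of all genes): POLR2B, POLR2G, POLR2L, GTF2E2, TAF1 and TAF13. Another 6 had values above 0 in all 4 (13.04%, against 12.5%): POLR2A, GTF2E1, GTF2H2C, GTF2H2D, TAF10 and TAF15. Both sets were listed after their values were seen, and their sizes are close to the share among all genes.

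The TFIIF subunits GTF2F1 and GTF2F2 had parental values of 0.50 and 3.65 and NMYC values of -2.05 and 0.30. GTF2F2 started at 6.12 CPM in parental cells and ended at 144 and 20.8 CPM, which is a wide replicate spread. GTF2F1 in NMYC cells went from 87.9 CPM at T0 to 38.00 and 3.75 CPM at T12. The remaining genes, GTF2A2 and the germ-cell paralogue GTF2A1L, had values between -0.31 and 1.27 in the 2 arms.

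TFIIH had medians of 0.12 in parental and 0.56 in NMYC cells over 9 genes. ERCC3, the DNA translocase that opens the promoter, had 62.6 CPM (T0), then 35.5 and 83.6 (T6), then 118 and 9.94 (T12) in parental and 21.4 CPM (T0), then 31.8 and 47.8 (T6), then 47.8 and 192 (T12) in NMYC cells. Its values were 0.12 and 2.40, and the parental T12 replicates lay on opposite sides of T0. ERCC2, the TFIIH helicase used in nucleotide excision repair, had 29.7 CPM (T0), then 14.6 and 23.2 (T6), then 0.646 and 3.91 (T12) in parental and 27.1 CPM (T0), then 24.2 and 9.09 (T6), then 38.8 and 18.5 (T12) in NMYC cells. Both parental T12 libraries were below both NMYC T12 libraries and below both parental T6 libraries. The values were -3.13 and 0.05, and the direct difference of NMYC from parental cells at T12, 3.25, was the highest of the 46 genes (edgeR on summed counts, adjusted p = 0.551).

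GTF2H4, which helps to hold ERCC3 in TFIIH, had a high parental T0 level, with 259 CPM (T0), then 55.1 and 154 (T6), then 27.5 and 76.03 (T12), against 77.1 CPM (T0), then 93.4 and 80.9 (T6), then 129.8 and 102 (T12) in NMYC cells. Its values were -2.21 and 0.56. GTF2H3 had a low parental T0 level, with 7.32 CPM (T0), then 19.5 and 181 (T6), then 38.1 and 47.6 (T12) in parental and 111 CPM (T0), then 44.2 and 62.3 (T6), then 125 and 54.1 (T12) in NMYC cells, and values of 2.49 and -0.33. GTF2H5, the smallest TFIIH subunit, had the lowest NMYC value of the complex, -1.88, against -0.28 in parental cells. The near-identical GTF2H2, GTF2H2C and GTF2H2D had values of 0.70, 0.95 and 1.89 in parental and of -0.39, 0.85 and 1.95 in NMYC cells. GTF2H1 had -1.33 and 1.63.

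TBP and the TAFs held the gene with the lowest value in each arm, TAF8 in parental and TAF4 in NMYC cells. Their median was 0.58 in parental cells, with 6 of 15 genes below 0, and -0.19 in NMYC cells, with 8 below. TBP, the protein that binds the TATA box, had 12.1 CPM (T0), then 22.00 and 90.5 (T6), then 5.36 and 95.7 (T12) in parental and 4.27 CPM (T0), then 4.88 and 35.8 (T6), then 17.7 and 5.55 (T12) in NMYC cells. Its values were 2.07 and 1.23, while the T12 replicates of the parental arm were 5.36 and 95.7 CPM. At T0 sgRNA HGLibB_48565 of TBP had 1 count in parental cells, against 4 and 971 at T12, so the replicates differed as much as the time points.

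TAF8 and TAF3, both histone-fold subunits of TFIID, had the lowest parental values of the 46 genes. TAF8 was at 252 CPM (T0), then 7.20 and 25.9 (T6), then 10.7 and 6.71 (T12) in parental cells, or a mean of 8.68 ± 2.79 CPM (SD, n = 2) at T12. In NMYC cells it was at 1.79 CPM (T0), then 11.1 and 27.8 (T6), then 5.36 and 17.7 (T12). All 4 later parental libraries were thus far below T0, but at levels like those of the NMYC libraries, in which T0 was the lowest. The parental value was -4.61 (-4.20 and -4.80 in the replicates; edgeR on summed counts, adjusted p = 0.184) and the NMYC value 2.14 (adjusted p = 0.682). The difference between the arms in the change from T0, 6.86, was the highest of the 46 genes (edgeR, adjusted p = 0.279), and the direct difference at T12, which uses no T0 library, was 0.44.

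TAF3, which binds histone H3 trimethylated at lysine 4, had 134 CPM (T0), then 27.9 and 54.8 (T6), then 2.52 and 6.77 (T12) in parental cells, or a mean of 4.65 ± 3.01 CPM (SD, n = 2) at T12, and 30.2 CPM (T0), then 19.1 and 21.04 (T6), then 35.8 and 9.59 (T12) in NMYC cells. Here the parental T12 libraries were also below both parental T6 libraries. Its values were -4.49 and -0.42 (edgeR on summed counts, adjusted p = 0.189 and 0.95). For T12 against T6 in parental cells, which needs no T0 library, TAF3, ERCC2 and POLR2L had the lowest values, -3.06, -2.75 and -2.59, with edgeR adjusted p-values on summed counts of 0.826, 0.826 and 0.826.

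TAF4, a core TFIID subunit that pairs with TAF12, had the sgRNA with the smallest p of the machinery in each arm. HGLibB_48174 had 276 counts (T0), then 17 and 3 (T6), then 1 and 0 (T12) in parental cells and 2379 counts (T0), then 89 and 47 (T6), then 0 and 15 (T12) in NMYC cells. It was lower than T0 in all 8 later libraries, and at T12 lower than at T6 in each arm; a count of 0 allows up to 3 counts at the same depth. Its edgeR adjusted p at T12 against T0 was 0.124 in parental and 0.178 in NMYC cells. When the NMYC libraries were fitted alone the adjusted p in edgeR was 0.00127. That fit called 285 lower and 4 higher of all 53040 sgRNAs, against 7 and 0 in the reported fit. Leaving out parental T12 replicate 1 or 2 also brought a call of this sgRNA in NMYC cells. Those fits, too, called more of all sgRNAs lower than the reported fit did. Over 17 fits, the reported one and its alternatives with DESeq2 among them, the adjusted p ranged from 0.00116 to 0.795 in NMYC cells. In parental cells the range was 0.00214 to 0.548. The lowest value of each range came from DESeq2, and no edgeR fit called this sgRNA in parental cells.

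The other sgRNAs of TAF4 did not share this course. HGLibB_48175 had 0 counts (T0), then 56 and 21 (T6), then 0 and 392 (T12) in parental and 0 counts (T0), then 28 and 47 (T6), then 270 and 5 (T12) in NMYC cells, and HGLibB_48176 had 4 counts (T0), then 126 and 19 (T6), then 5 and 1 (T12) and 8 counts (T0), then 25 and 13 (T6), then 0 and 190 (T12). Both were near 0 at T0 in both arms, so neither could be seen to go lower. The summed level of TAF4 was 20.9 CPM (T0), then 11.4 and 6.16 (T6), then 0.388 and 24.4 (T12) in parental and 185 CPM (T0), then 7.30 and 8.53 (T6), then 17.7 and 15.1 (T12) in NMYC cells, with values of -0.61 and -3.45 (edgeR on summed counts, adjusted p = 0.851 and 0.565).

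TAF7, which binds TAF1 in TFIID, had the highest NMYC value of the TAFs, with 4.58 CPM (T0), then 23.3 and 26.5 (T6), then 22.04 and 99.5 (T12) in NMYC and 11.9 CPM (T0), then 30.2 and 48.7 (T6), then 2.91 and 58.3 (T12) in parental cells, and values of 3.44 and 1.38. TAF11, a histone-fold partner of TAF13, had 4.03 CPM (T0), then 31.9 and 42.9 (T6), then 46.3 and 73.6 (T12) in parental and 103 CPM (T0), then 18.7 and 19.5 (T6), then 54.7 and 63.5 (T12) in NMYC cells, with values of 3.69 and -0.82. TAF13 was on the other side, at -2.97 and -0.87. TAF15, an RNA-binding protein found with only some TFIID, had 24.6 CPM (T0), then 99.3 and 105 (T6), then 162 and 218 (T12) in parental and 51.7 CPM (T0), then 91.7 and 57.2 (T6), then 135 and 197 (T12) in NMYC cells. All 8 later libraries of TAF15 were above T0, with values of 2.997 and 1.63 (edgeR on summed counts, adjusted p = 0.244 and 0.67), and it was chosen for description after its values were seen. Over the 46 genes, 3 had values above 0 in all 8 later libraries, GTF2E1, TAF10 and TAF15 (6.52%, against 6.41% of all genes), and 3 had values below 0 in all 8, POLR2B, TAF1 and TAF13 (6.52%, against 7.34%). The other TAFs, TAF1, TAF2, TAF5, TAF6, TAF9, TAF10 and TAF12, had parental values from -2.23 (TAF1) to 1.32 (TAF2) and NMYC values from -0.84 (TAF1) to 2.09 (TAF9).

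The elongation factors and FACT had medians of 1.25 in parental and -0.13 in NMYC cells over 4 genes. SUPT5H, the large subunit of the DSIF pausing and elongation factor, had 0.373 CPM (T0), then 13.7 and 6.74 (T6), then 15.1 and 54.8 (T12) in parental cells and 160.4 CPM (T0), then 14.4 and 3.99 (T6), then 38.4 and 57.1 (T12) in NMYC cells. Its parental T0 level was 5 counts, all from sgRNA HGLibB_47762, which had 5 counts (T0), then 239 and 47 (T6), then 233 and 882 (T12), and the NMYC T0 library held 2010 counts of the same sgRNA. The values were 4.81 and -1.76 (edgeR on summed counts, adjusted p = 0.203 and 0.74), the difference between the arms was -6.46 (adjusted p = 0.244), and the direct difference at T12 was 0.51. SUPT6H, a histone chaperone that travels with the polymerase, had values of 0.30 and 0.30. The FACT subunits SUPT16H and SSRP1 had opposite signs within each arm, at 2.19 and -0.69 in parental and -0.57 and 0.72 in NMYC cells.

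**Figure D3:**
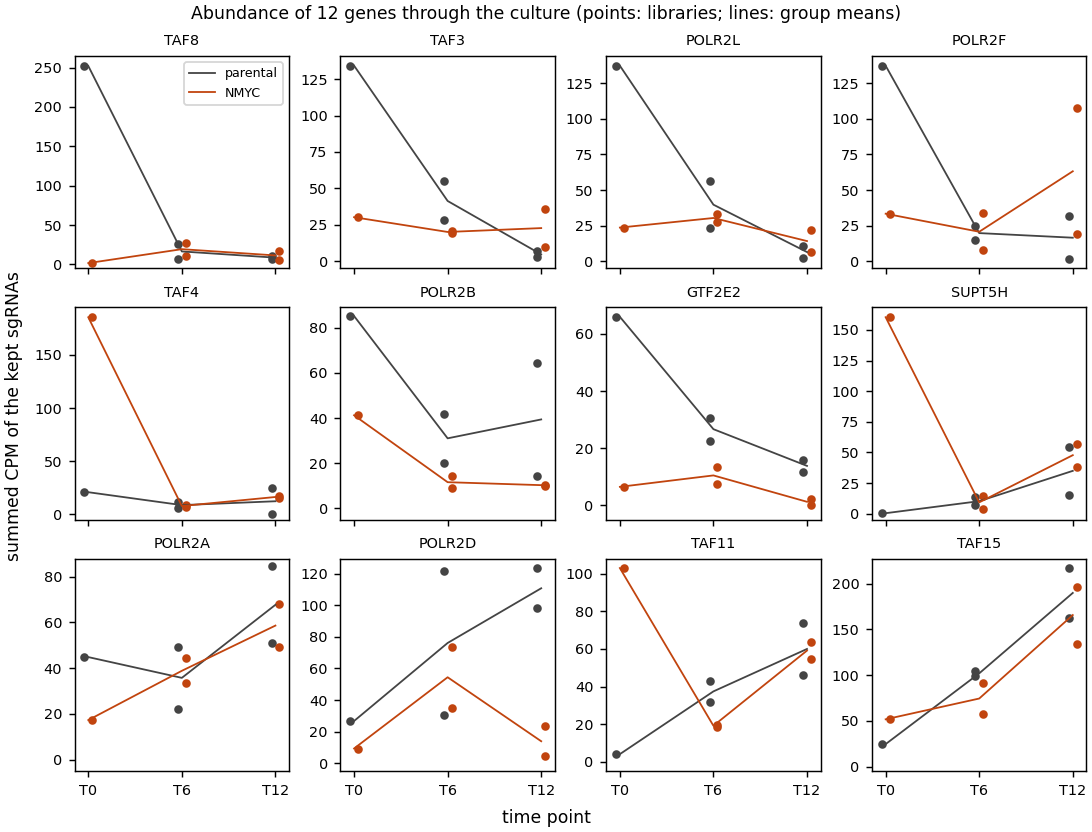
Summed CPM (y axis, linear, own range in each panel) of 12 genes at T0, T6 and T12 (x axis) in parental (grey) and NMYC cells (orange); each point is 1 library and the lines join group means. The arms differ most at T0 for TAF8, TAF4, SUPT5H and TAF11, and lie closer together at T6 and T12 for these genes.

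At T6 against T0, edgeR called 0 of the 131 sgRNAs in parental cells (0.00189% of all lower and 0% higher), with 5 lower and 8 higher before adjustment, at p under 0.05 (4.45% and 4.82% of all) and 1 lower and 8 higher by DESeq2 (1.67% and 5.03% of all). In NMYC cells edgeR called 0 (0% of all in either direction), with 3 lower and 2 higher unadjusted (3.24% and 0.452% of all) and 1 lower and 1 higher by DESeq2 (0.109% and 0.0622% of all). Rank aggregation called 0 genes in either arm (0% of all); before adjustment it placed 2 genes at each end in parental cells (5.01% and 4.88% of all) and 6 at each end in NMYC cells (5.12% and 4.96% of all). edgeR on the summed counts also called 0 (0% of all), with 4 lower and 4 higher in parental (7.86% and 5.83% of all) and 3 lower and 2 higher in NMYC cells (6.47% and 0.681% of all) before adjustment. In parental cells all 3 sgRNAs were higher at T6 for 10 of 38 genes (26.3%, against 12.5% of all), among them POLR2H, POLR2K, GTF2A2, GTF2E1, GTF2F2, TBP and TAF2, and lower for 6 (15.8%, against 12.9%). In NMYC cells the counts were 4 higher and 5 lower (10.5% and 13.2%, against 12.5% for each). The medians of the 46 genes were 0.068 in parental cells (0.27 and -0.074 in the replicates) and 0.22 in NMYC cells (0.42 and 0.11 in the replicates), with 22 genes below 0 in each arm. TAF8 and POLR2F were the lowest parental genes at T6, at -3.65 and -2.53, and GTF2H3 and SUPT5H the highest, at 3.81 and 3.23. TAF4 and SUPT5H were the lowest NMYC genes, at -4.16 and -3.75, and GTF2A1 and TAF8 the highest, at 3.22 and 3.11. These comparisons share their T0 library with those at T12.

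From T6 to T12, where T0 does not enter, edgeR called 0 sgRNAs in both arms, as for all sgRNAs (0% in either direction). Unadjusted, 5 were lower and 0 higher in parental cells (4.32% and 2.12% of all), and 2 lower and 3 higher in NMYC cells (2.84% and 1.57% of all). DESeq2 called 2 lower and 0 higher in parental cells (1.88% and 0.603% of all) and 0 in either direction in NMYC cells (0.605% and 0.247% of all). By rank aggregation 0 genes were called (0% of all), with 4 low and 0 high before adjustment in parental cells (4.9% and 4.89% of all), POLR2L, ERCC2, TAF3 and TAF10, and 2 low and 3 high in NMYC cells (4.96% and 4.7% of all). By edgeR on the summed counts 0 were called (0% of all), with 3 lower and 0 higher in parental (3.14% and 2.85% of all) and 0 lower and 1 higher in NMYC cells (0.978% and 1.85% of all) before adjustment. The median of the 46 genes was -0.062 in parental cells (-0.035 and 0.23 between same-numbered replicates), with 24 below 0. In NMYC cells it was 0.14 (0.12 and 0.22 between same-numbered replicates), with 18 below 0. GTF2E2 and POLR2I were the lowest NMYC genes, at -2.67 and -2.62, and SUPT5H and TAF11 the highest, at 1.92 and 1.24.

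The arms were compared in 2 ways. For the difference in the change from T0 to T12, which uses both T0 libraries, edgeR called 0 of the 131 sgRNAs (0% of all), with 6 lower in NMYC cells and 7 higher at an unadjusted p under 0.05 (6.17% and 3.78% of all) and 4 and 5 by DESeq2 (3.86% and 2.66% of all). Of the genes, 0 were called by rank aggregation (0% of all), with 1 low and 3 high before adjustment (4.78% and 4.85% of all), and 0 by edgeR on the summed counts (0% of all), with 3 lower and 4 higher (6.23% and 5.03% of all). The median difference was 0.28 over the 46 genes, NMYC minus parental, with 19 below 0, while the same-numbered replicates gave 0.23 and -0.075. For the direct comparison of the T12 libraries, edgeR called 0 sgRNAs (0.00189% of all lower and 0% higher), with 7 lower in NMYC cells and 6 higher unadjusted (5.74% and 5.22% of all) and 6 and 5 by DESeq2 (4.3% and 4.08% of all). Rank aggregation called 0 genes (0% of all), with 2 low and 3 high before adjustment (5.11% and 4.89% of all), and edgeR on the summed counts called 0 (0% of all), with 4 lower and 1 higher (4.28% and 3.57% of all). The median was 0.18, with 20 below 0, while the same-numbered replicates gave -0.063 and 0.029.

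Both NMYC T12 libraries were below both parental ones for 10 of the 46 genes (21.7%, against 19% of all genes): POLR2B, POLR2C, POLR2D, POLR2G, POLR2H, GTF2E2, GTF2F1, GTF2H5, TAF6 and TAF12. They were above both for 6 (13.04%, against 14.8%): GTF2E1, GTF2H3, GTF2H4, ERCC2, TAF1 and TAF3. At T6 the counts were 13 below (28.3%, against 18.7%) and 2 above (4.35%, against 15%), the latter GTF2B and GTF2H1. Polymerase subunits had a direct median of -0.78 at T12, with 8 of 10 below 0, but their median level in the NMYC T12 libraries, relative to all genes in the same library, was -0.59 in replicate 1 and -2.10 in replicate 2. None of these genes was called at T12 by rank aggregation or by edgeR on summed counts, and the arms were not tested against each other at T6. The DESeq2 calls at T12, 6 lower and 5 higher in NMYC cells (4.3% and 4.08% of all), were of 1 sgRNA each. They fell on POLR2D, POLR2H, GTF2E2, TAF1, TAF6 and TAF12 of the genes listed above, and on ERCC3, GTF2A1, GTF2H2, TAF7 and TAF8.

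**Figure D4:**
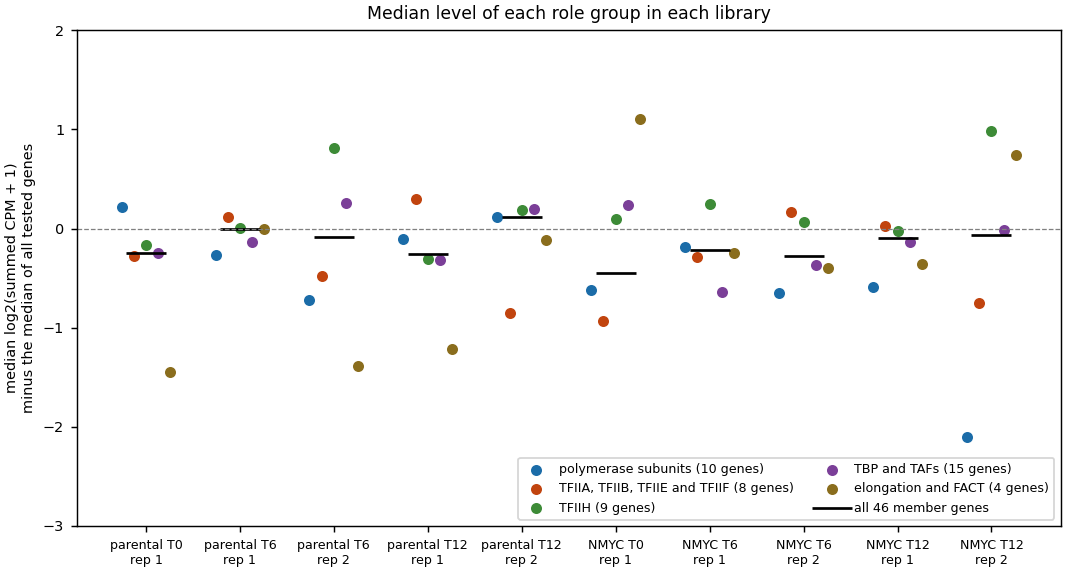
Median log2(summed CPM + 1) of the genes of each role group (coloured points) and of all 46 tested genes (black bars), minus the median of all tested genes (y axis), in each of the 10 libraries (x axis). The bars stay between -0.45 and 0.12, and the polymerase subunits reach -2.10 in NMYC T12 replicate 2.

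The wider RNA polymerase II pathway was read from 58 further genes, among them the kinases that act on the polymerase, NELF, the PAF complex and assembly factors. All but POLR2J2 and POLR2J3 were matched, and rank aggregation called 0 of the 56 tested genes in any comparison, as for all genes (0%). At T12 against T0 their median was -0.17 in parental cells, with 29 below 0 and 2 at the low and 4 at the high end unadjusted (5.11% and 4.85% of all genes). In NMYC cells it was 0.21, with 23 below 0 and 1 low and 0 high unadjusted (5.02% and 5.07% of all genes). For the difference between the arms in the change from T0, which uses both T0 libraries, the median was 0.88, with 20 below 0. Unadjusted, 4 were low and 0 high there (4.78% and 4.85% of all genes). The direct comparison at T12 gave 0.11, with 23 below 0 and 1 low and 5 high unadjusted (5.11% and 4.89% of all genes).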

How the data were processed

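Genomic DNA was sequenced as sgRNA amplicons in 10 libraries, and the deposited table holds raw counts, 1 column per library. Per the submitters' processing notes the authors used MAGeCK (no version given); the sources used here do not give its trimming, mismatch setting or sgRNA list. The labels state 65000 sgRNAs and the table lists 55849. The genes and the pathway list were chosen with earlier results of these data known.

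sgRNAs with a mean count of at least 20 were kept. edgeR 4.0.16 (TMM factors, 6 group means, 4 residual degrees of freedom, quasi-likelihood test, two-sided, Benjamini-Hochberg at 0.05) was fitted to all 53040. Genes with at least 2 kept sgRNAs were scored by robust rank aggregation (one-sided sgRNA p under 0.25), and by edgeR on summed counts with the sgRNA fit's library sizes. DESeq2 1.42.0, other filters, centrings and pseudocounts, each arm alone, a replicate block and leaving out each library were alternatives. Scripts were tested on simulated data. Both cultures of an arm come from 1 infection, so p-values measure the spread that arose after it, and CPM intervals would cover counting error only. With 1 T0 library in each arm, the spread at T0 was not measured. Tests that use T0 took their spread from the duplicated T6 and T12 groups.

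Described throughout were POLR2A, TBP, GTF2B, ERCC3 and SUPT5H. Also named were the 2 lowest genes and the 1 highest of each of 5 role groups in each arm at T12 against T0, the 2 lowest and 2 highest genes of every other comparison, genes without a test, and near-identical copies. In the reported tests replicate numbers were not taken to pair the libraries: the replicate differences at T6 and T12 correlated at 0.065 in parental and -0.0088 in NMYC cells. The replicate medians given from T6 to T12 and between the arms set same-numbered libraries against each other. That pairing is arbitrary, and the replicate spread of these medians rests on it. sgRNA sequences and genome coordinates were not used here.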

Additional observations from a re-analysis of the deposited data

How the results depend on the processing

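Rank aggregation called 0 genes of the machinery in each of 122 alternatives, and edgeR on summed counts called 0 in each of the 8 comparisons. Most of these tested 46 genes, but 47 were tested with no filter and 22 with at least 30 counts at T0. For sgRNAs, 112 of 122 alternative counts were also within 1.5 times the main count of 0. The exceptions were DESeq2, with 14 sgRNAs called at T12 against T0 in parental and 5 in NMYC cells, 9 and 2 at T6 against T0, 2 from T6 to T12 in parental cells, 9 for the difference between the arms and 11 for the direct comparison at T12, and the NMYC libraries fitted alone, with 1 at T12 against T0. Leaving out 1 library gave 0 to 1 sgRNAs for NMYC T12 against T0, the call being TAF4 without either parental T12 replicate, and 0 in the other comparisons. The fits without a parental T12 replicate also called more of all sgRNAs lower in NMYC cells than the reported fit. Fitted alone, the NMYC libraries called 285 lower and 4 higher of all 53040 sgRNAs at T12 against T0, against 7 and 0 in the reported fit. With a replicate block, 0 sgRNAs and 0 genes of the machinery were called.

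The median of the tested genes moved by more than the spread between replicates in 18 of 116 alternatives. Centred on non-targeting sgRNAs it was -0.44 (parental) and -0.31 (NMYC) at T12 against T0, -0.88 and -0.35 at T6 against T0, 0.39 from T6 to T12 in NMYC cells and 0.060 directly at T12. The centre there comes from single sgRNAs and the gene values from sums, so the units differ. Taken as the median of the sgRNA values it was 0.27 from T6 to T12 in NMYC cells, 0.0063 for the difference between the arms and 0.089 directly. With no filter, over 47 genes, the direct median was 0.080. Restricted to sgRNAs that had 30 counts or more in each T0 library, over 22 genes, the difference was -0.20 and the direct median -0.23. Leaving out 1 library gave -0.57 to 0.22 and -0.10 to 0.32 at T12 against T0 in parental and NMYC cells, -0.074 to 0.27 and 0.11 to 0.42 at T6 against T0, -0.24 to 0.20 and -0.11 to 0.17 from T6 to T12, 0.23 to 0.47 for the difference and -0.047 to 0.32 directly. Of 3312 alternative values of single named genes, 378 moved beyond the replicate spread and 235 changed sign. The causes were not tested. A T0 library cannot be left out, as each arm has 1. A fit of 1 arm cannot compare the arms, and a T0 baseline pooled over the arms does not apply where T0 is not used. Genes with few counts at T0, such as SUPT5H in parental cells, limit what can be seen to go lower.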
